A study of Homo sapiens with 12 samples.

Results

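The genes described here are the members of the activator protein 1 (AP-1) family measured in side population (SP) and non-SP cells of A549, with ATF3 and MAFF beside them: FOS, FOSB, FOSL1, FOSL2, JUN, JUNB, JUND, ATF3 and MAFF. They were taken as all probe sets whose gene symbol in the array's probe table was exactly one of these 9 names, which gave 22 probe sets of 54613 besides controls. A549 is an established human lung adenocarcinoma line. Its cells were stained for 90 min with a Hoechst DNA dye (5 µg/ml). The sort then separated SP cells, which exclude the dye and stay dim, from non-SP cells, which retain it. The 4 groups were untreated non-SP cells, untreated SP cells, and non-SP and SP cells from cultures given a monoclonal antibody that the labels call anti-mouse EpCAM, at 100 µg/ml for 48 h. Probe sets of a gene are numbered here by their mean level over all arrays, brightest first, and their array identifiers are on the axes of the plots. Each group held 3 biological replicates, 12 arrays in all, and the labels give dye staining and sorting for all 4 groups. The labels name no control antibody for the untreated cultures, do not tell if mouse names the animal that made the antibody or the protein it was raised against, and give the stain as made with or without the efflux blocker reserpine without tying either to a sample. The replicates come from 1 cell line, and no label says that they were separate cultures, so p-values measure the spread between these samples, which may be technical.

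AP-1 is a dimer of basic leucine zipper (bZIP) proteins. JUN family proteins pair with each other or with FOS family proteins, and FOS proteins need a JUN partner to bind DNA. ATF3, of the ATF/CREB family, is induced by many kinds of cell stress and pairs with JUN proteins, while MAFF is a small MAF protein that lacks a transactivation domain of its own. FOS, FOSB, JUN, JUNB and ATF3 are immediate-early genes, whose transcripts rise within minutes of growth factors, stress or cell handling and decay quickly; FOSL1, which encodes FRA-1, is also known as a gene held high by RAS and ERK signalling in carcinoma cells.

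The promoters of the members are shown because AP-1 and ATF proteins bind the promoters of their own family. A second reason is that FOS and 1 probe set each of JUN, ATF3 and FOSL2 passed as higher in SP cells. No probe set of JUND or MAFF passed. The windows are the 250 bases before the annotated start in RefSeq on GRCh38.p14, written 5′ to 3′ on the strand of the gene, with the searched motifs in capitals. Of the 9 genes, 8 matched an entry, and FOSL1 had none. ATF3 and MAFF each had 2 starts. The windows below are those of JUN (chr1:58784048-58784297, minus strand), ATF3 at its first start (chr1:212565157-212565406, plus strand), FOS (chr14:75278578-75278827, plus strand), JUND (chr19:18281623-18281872, minus strand) and MAFF at its first start (chr22:38201744-38201993, plus strand).
JUN: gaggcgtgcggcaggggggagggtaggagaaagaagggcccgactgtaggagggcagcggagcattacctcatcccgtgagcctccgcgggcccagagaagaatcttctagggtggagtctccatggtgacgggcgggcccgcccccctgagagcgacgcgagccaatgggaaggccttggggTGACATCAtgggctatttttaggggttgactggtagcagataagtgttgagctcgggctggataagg
ATF3: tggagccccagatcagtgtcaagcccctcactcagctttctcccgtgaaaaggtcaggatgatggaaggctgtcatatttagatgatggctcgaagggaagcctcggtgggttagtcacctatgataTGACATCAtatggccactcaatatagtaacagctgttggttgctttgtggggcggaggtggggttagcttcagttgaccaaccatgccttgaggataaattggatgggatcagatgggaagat
FOS: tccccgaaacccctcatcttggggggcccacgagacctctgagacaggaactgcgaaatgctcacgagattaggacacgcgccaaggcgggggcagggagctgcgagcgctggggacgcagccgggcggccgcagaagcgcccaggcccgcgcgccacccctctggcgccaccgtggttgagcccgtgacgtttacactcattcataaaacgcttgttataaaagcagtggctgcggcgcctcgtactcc
JUND: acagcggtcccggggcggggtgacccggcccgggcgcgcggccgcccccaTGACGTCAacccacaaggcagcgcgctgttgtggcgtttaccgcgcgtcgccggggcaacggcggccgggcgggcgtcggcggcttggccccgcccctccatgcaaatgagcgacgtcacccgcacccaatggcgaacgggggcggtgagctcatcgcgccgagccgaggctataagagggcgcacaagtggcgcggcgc
MAFF: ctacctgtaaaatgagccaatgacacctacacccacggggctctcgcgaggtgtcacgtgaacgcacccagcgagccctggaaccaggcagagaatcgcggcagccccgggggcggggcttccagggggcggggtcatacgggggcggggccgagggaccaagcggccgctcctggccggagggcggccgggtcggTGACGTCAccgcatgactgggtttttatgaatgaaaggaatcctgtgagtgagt
The searched motifs were the AP-1 site TGACTCA, the CRE-type site TGACGTCA, the CArG box that serum response factor binds, and TGACATCA, which was added after the windows had been read. Both strands were searched. TGACATCA stood in the JUN window, with its first base 67 bases before the start, and in the ATF3 window, 123 bases before it. TGACGTCA stood in the JUND window at 200 bases and in the MAFF window at 54 bases before the start. The FOS window held none of the 4 motifs, nor did those of FOSL2, JUNB, FOSB and the second starts, which are not printed. Sites farther than 250 bases before the start, for FOS or any other member, were not looked for. Of 35116 windows of the same length, 2.38% held TGACATCA, 1.65% TGACGTCA, 4.20% TGACTCA and 1.16% the CArG box. A match of letters describes the sequence and shows no binding.

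The values are RMA log2 levels per probe set, and the number of arrays limits their precision. A probe set was tested when its mean over the 12 arrays exceeded the 40th percentile (5.39), which kept 32768 probe sets, 21 of the 22 members among them. Only JUND probe set 4 lay below it. The medians of the arrays ran from 5.59 to 6.24, with pairs 1 and 2 of the untreated cells and pair 1 of the antibody-treated cells at the low end. The epithelial markers KRT8, KRT18, KRT19, EPCAM and CDH1 ranked between the 88.9th and the 99.9th percentile of all probe sets. PTPRC, which defines leukocytes, stayed at 3.49 to 4.61 and CDH5, which defines endothelium, at 3.36 to 4.10, both below the filter. The other markers of such cells were mostly above it: CD3E and CD14 of 3 leukocyte markers with an entry, PECAM1 of 3 endothelial markers, and 4 of 5 fibroblast markers, with COL1A1 at 7.92 to 10.64. ABCG2, the pump that gives SP cells their dim stain, was 0.49 ± 0.058 (SE) log2 units higher in SP cells (limma adjusted p = 0.0224). It did not pass with the 12 arrays taken as independent. Of the 6 fits that each left out a single pair of SP and non-SP arrays, it passed in 1.

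Whether SP cells differ from non-SP cells was asked over the 6 pairs of SP and non-SP arrays that carry the same treatment and replicate number. In this comparison 4 of the 21 tested member probe sets were higher in SP cells and 0 were lower: ATF3 probe set 1, FOS, JUN probe set 2 and FOSL2 probe set 2. Over all probe sets tested, 0.641% passed (210 of 32768) and 0.156% passed as higher in SP cells (51), while 159 passed as lower. A probe set passed at a Benjamini-Hochberg adjusted p under 0.05 in limma. The median SP minus non-SP difference over the 21 probe sets was 0.19 against 0.006 over all probe sets, and 19 of the 21 lay above 0, against 52.3% of all. Of the 21, 10 were higher in SP cells in all 6 pairs and 0 were lower in all 6, where 5.01% of all probe sets were higher in all 6. The 21 probe sets are repeated readings of 9 genes, which were chosen with earlier results of these data known. The contrast with all probe sets is therefore a description and no test of the family. The 4 calls rest on the pairing: with the 12 arrays taken as independent, 0 member probe sets and 0% of all probe sets passed, with 563 of all at an unadjusted p under 0.05. That fit used the values as deposited, with array medians from 5.59 to 6.24. No such fit was made with the arrays brought to one scale. As these are bulk RNA samples, a change in RNA per cell cannot be told apart from a change in the share of cells that express a gene.

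**Figure D1:**
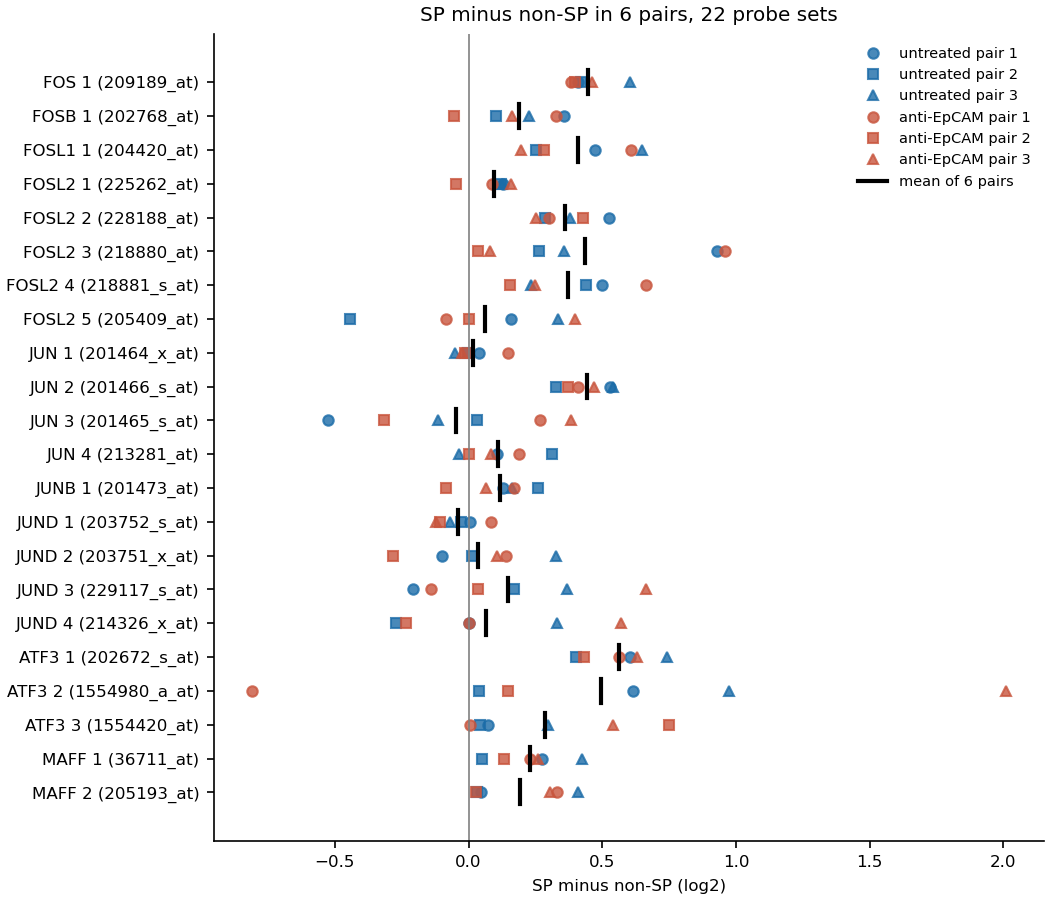
SP minus non-SP difference in log2 units (horizontal axis) for each of the 22 probe sets (rows), with a point for each of the 6 pairs, coloured by treatment and shaped by replicate number, and a bar at the mean. All 6 points of FOS, JUN probe set 2, FOSL2 probe set 2 and ATF3 probe set 1 lie right of 0, between 0.25 and 0.74, while those of each of the other 3 JUN probe sets fall on both sides of 0.

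Among the FOS family, FOS passed the test, with SP above non-SP in every pair. It read 11.76, 12.16 and 12.28 in the untreated non-SP arrays and 12.17, 12.59 and 12.89 in the untreated SP arrays. With antibody the non-SP arrays read 11.61, 12.83 and 12.40 and the SP arrays 11.99, 13.23 and 12.86. The non-SP and SP groups overlapped within each treatment, and both arrays of a pair lay high or low together, with the SP array the higher in each of the 6 pairs. The pair differences were 0.41, 0.42 and 0.60 in untreated cells and 0.38, 0.40 and 0.46 with antibody. The mean difference was 0.45 ± 0.053 (SE), a 1.36-fold higher level in SP cells (limma adjusted p = 0.0224).

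FOSB, the FOS paralog that is also serum-induced, had 1 probe set. It read 11.36, 11.91 and 12.27 in untreated non-SP cells against 11.72, 12.01 and 12.50 in SP cells, and 11.40, 12.43 and 12.56 against 11.73, 12.38 and 12.72 with antibody. SP exceeded non-SP in 5 of the 6 pairs, with anti-EpCAM pair 2 as the exception. The mean difference of 0.19 ± 0.067 (SE) did not pass the test (adjusted p = 0.274).

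FOSL1 was higher in SP cells in every pair but missed the threshold. The untreated non-SP arrays read 9.22, 9.05 and 9.57, and the SP arrays 9.69, 9.30 and 10.21. With antibody the non-SP arrays read 9.35, 9.68 and 9.85, and the SP arrays 9.96, 9.96 and 10.05, so that in treated cells the lowest SP array lay above the highest non-SP array. Pair differences ran from 0.20 to 0.65, a wider spread than that of FOS. The mean was 0.41 ± 0.077 (SE; 95% interval 0.23 to 0.59; limma adjusted p = 0.0701). Restricted to 1 probe set per gene, which reduces the number of tests to 14649, FOSL1 passed (adjusted p = 0.0190), as did 2.47% of all genes tested (362).

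FOSL2, which encodes FRA-2, was read by 5 probe sets, whose mean differences ran from 0.061 to 0.44 and of which 1 passed. The brightest, probe set 1, was 10.37, 10.54 and 10.80 in untreated non-SP cells and 10.50, 10.66 and 10.93 in SP cells. In antibody-treated cells it read 10.27, 11.17 and 10.79 against 10.36, 11.12 and 10.95. Its mean difference was 0.096 ± 0.052 (SE; adjusted p = 0.448). The probe set that passed, probe set 2, read 10.03, 10.13 and 10.52 in untreated non-SP cells and 10.55, 10.42 and 10.90 in SP cells. Under antibody its levels were 10.07, 10.66 and 10.22 against 10.38, 11.09 and 10.47. Every one of the 6 pairs had the higher level in SP cells, by 0.25 to 0.53, with a mean of 0.36 ± 0.057 (SE; limma adjusted p = 0.0458). Its groups overlapped within each treatment. FOSL2 probe set 4 (0.37 ± 0.079, SE; adjusted p = 0.0942) and probe set 3 (0.44 ± 0.14, SE; adjusted p = 0.228) were also higher in all 6 pairs without passing. In probe set 3 the difference came to 0.93 and 0.96 in pair 1 of either treatment and to 0.03 to 0.36 in the other 4. FOSL2 probe set 5 had no common sign (0.061; adjusted p = 0.845).

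In the JUN family, JUN itself passed on 1 of its 4 probe sets, with mean differences from −0.045 to 0.44 over the 4. JUN probe set 2 read 9.66, 9.61 and 9.57 in untreated non-SP cells and 10.19, 9.94 and 10.12 in SP cells, so the untreated groups did not overlap. The antibody-treated arrays read 9.43, 10.14 and 9.90 against 9.84, 10.51 and 10.37, and those groups overlapped. Pair differences were 0.53, 0.33 and 0.54 without and 0.41, 0.37 and 0.47 with antibody, and the mean was 0.44 ± 0.054 (SE), 1.36-fold (limma adjusted p = 0.0256).

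JUN probe set 1, the brightest, showed no such difference. It read 12.10, 12.24 and 12.64 in untreated non-SP cells and 12.14, 12.24 and 12.59 in SP cells. With antibody it read 12.07, 12.81 and 12.74 against 12.21, 12.79 and 12.72. The mean difference was 0.016 ± 0.052 (SE), and its 95% interval of −0.11 to 0.14 leaves out the 0.44 seen for probe set 2. JUN probe set 4 differed by 0.11 ± 0.063 (SE; adjusted p = 0.474) and JUN probe set 3 by −0.045 ± 0.11 (SE; adjusted p = 0.888), the latter with pair differences from −0.52 to 0.38. The difference between the JUN probe sets was itself compared within pairs: probe set 1 minus probe set 2 was −0.43 ± 0.12 (SD, n = 6 pairs) and below 0 in all 6. An exact two-sided sign-flip test gave p = 0.03125, the smallest 6 pairs allow, and 0.0938 after adjustment over 12 such comparisons of probe sets of a gene. FOSL2 probe set 1 minus probe set 2 was −0.27 ± 0.14 (SD) and below 0 in all 6 pairs, with the same exact p and adjusted value. So were 2 comparisons with probe sets that had not passed. JUN probe set 1 minus probe set 4 was −0.094 ± 0.11 (SD), and FOSL2 probe set 1 minus probe set 4 was −0.28 ± 0.18 (SD). The other comparisons did not reach the smallest p. None of the 12 passed after adjustment, which 6 pairs could reach only if more comparisons sat at the smallest p. On this array design an identifier ending in _x_at, as that of JUN probe set 1, marks a probe set whose probes may hybridise to other transcripts. An identifier ending in _s_at, as that of JUN probe sets 2 and 3, marks probes shared by several transcripts. Which part of the JUN transcript each covers was not used here.

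JUNB, a JUN paralog that often opposes JUN at shared targets, read 9.73, 9.94 and 10.03 in untreated non-SP cells and 9.86, 10.20 and 10.19 in SP cells. In antibody-treated cells it read 9.59, 10.11 and 10.13 against 9.75, 10.03 and 10.19. It was higher in SP cells in 5 of 6 pairs, by a mean of 0.12 ± 0.056 (SE; adjusted p = 0.393). JUND, the JUN member that is expressed steadily rather than induced, read 12.33, 12.61 and 12.92 against 12.34, 12.58 and 12.86 in untreated cells. Under antibody its levels were 12.25, 12.85 and 12.90 against 12.33, 12.74 and 12.78 on its brightest probe set. The difference was −0.040 ± 0.053 (SE), with a 95% interval of −0.16 to 0.084 (adjusted p = 0.781). The other tested JUND probe sets, probe set 2 (0.035; adjusted p = 0.887) and probe set 3 (0.15; adjusted p = 0.609), did not pass either. The dim JUND probe set 4 differed by 0.066 ± 0.11 (SE) in a fit without the filter (adjusted p = 0.874).

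**Figure D2:**
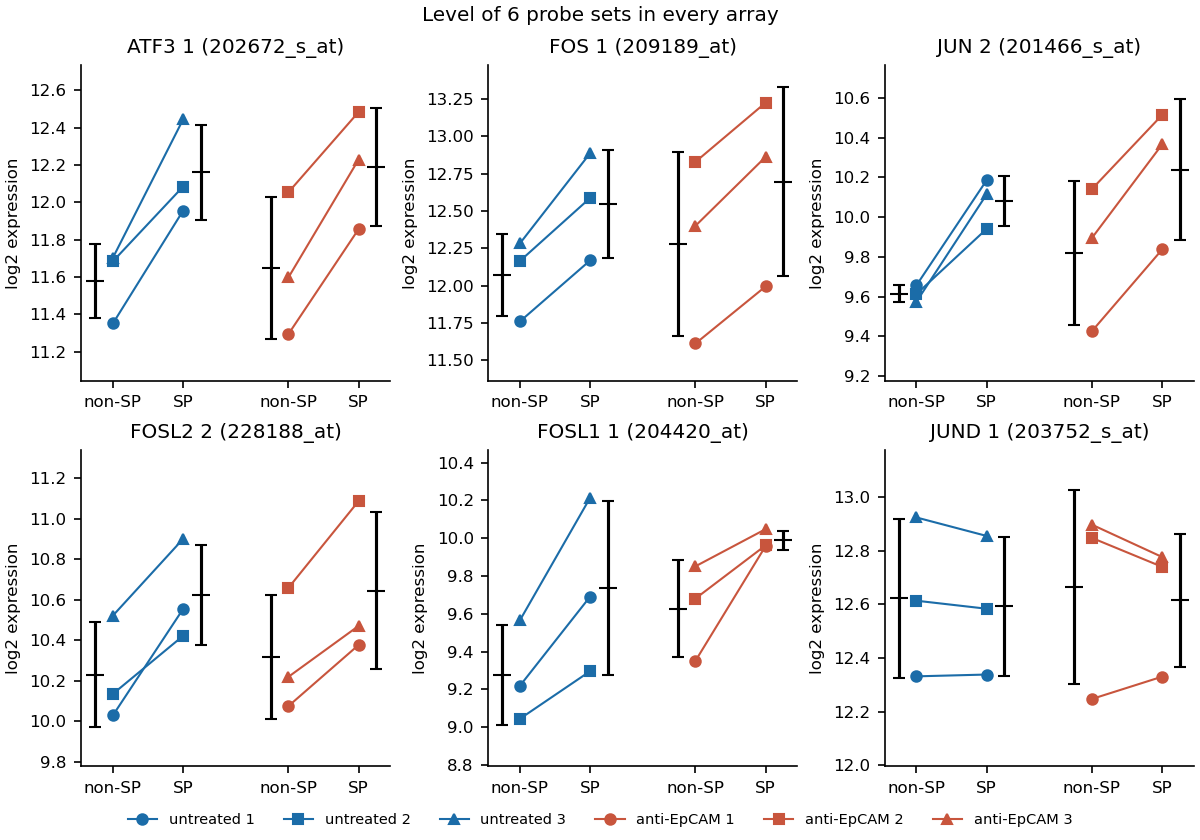
Log2 level (vertical axis, a range of its own in each panel) of 6 probe sets in every array, with SP and non-SP arrays of a pair joined by a line, untreated on the left and antibody-treated on the right of each panel; bars give the group mean ± SD of 3 arrays. The lines of ATF3, FOS, JUN probe set 2, FOSL2 probe set 2 and FOSL1 rise from non-SP to SP in all 6 pairs, and those of JUND probe set 1, with a mean difference of −0.040, do not.

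ATF3 had the largest difference of the 4 members that passed. ATF3 probe set 1 read 11.35, 11.68 and 11.70 in untreated non-SP cells and 11.96, 12.08 and 12.44 in untreated SP cells, or 11.58 ± 0.20 against 12.16 ± 0.25 (SD, n = 3 each), with no overlap. The antibody-treated arrays read 11.29, 12.05 and 11.60 against 11.86, 12.48 and 12.23, or 11.65 ± 0.38 against 12.19 ± 0.32 (SD, n = 3 each), and the groups overlapped. The pair differences were 0.60, 0.40 and 0.74 in untreated cells and 0.56, 0.43 and 0.63 with antibody. The mean was 0.56 ± 0.063 (SE), 1.48-fold (95% interval 0.42 to 0.71 in log2 units; limma adjusted p = 0.0183).

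The other ATF3 probe sets were less steady. ATF3 probe set 2 had a mean difference of 0.50 ± 0.32 (SE; adjusted p = 0.527), with pair differences of 0.62, 0.04 and 0.97 in untreated cells and −0.81, 0.15 and 2.01 with antibody. ATF3 probe set 3 had positive differences in all 6 pairs, from 0.006 to 0.75, with a mean of 0.28 ± 0.097 (SE; adjusted p = 0.253). The array's GAPDH control, the 3′ minus the 5′ probe set level, which rises as RNA is degraded, differed between SP and non-SP by −0.11, 0.006 and 0.11 in the untreated pairs and by 0.54, 0.30 and −0.38 in the antibody pairs 1, 2 and 3. The antibody pairs 1 and 3 were thus the extremes of both the control and ATF3 probe set 2, in opposite order. In a fit with the control as a covariate, which leaves the mean over 6 pairs as it is, ATF3 probe set 2 did not pass (adjusted p = 0.234) and ATF3 probe set 1 did (adjusted p = 0.0451). FOS (adjusted p = 0.0463) and JUN probe set 2 (0.0469) passed there too, and FOSL2 probe set 2 did not (0.0753).

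**Figure D3:**
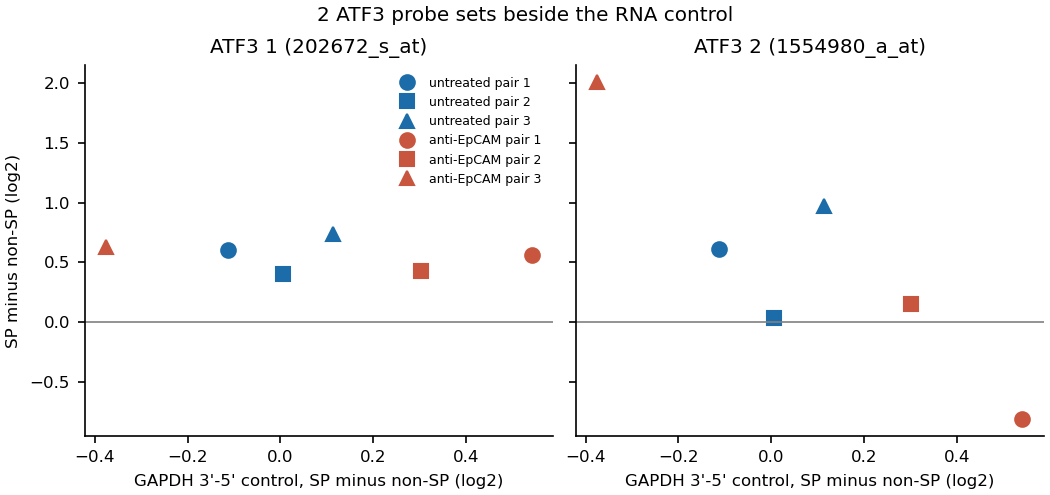
SP minus non-SP difference of 2 ATF3 probe sets (vertical axis, log2) against the SP minus non-SP difference of the GAPDH 3′ minus 5′ control (horizontal axis, log2), 1 point per pair. ATF3 probe set 1 stays between 0.40 and 0.74 over the control's whole range, and ATF3 probe set 2 runs from −0.81 at a control difference of 0.54 to 2.01 at −0.38.

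MAFF, whose product joins CNC proteins such as NRF2 in stress responses, had 2 probe sets, each higher in SP cells in all 6 pairs without passing. MAFF probe set 1 read 11.89, 11.68 and 11.87 in untreated non-SP cells and 12.16, 11.73 and 12.30 in SP cells. With antibody it read 11.84, 11.89 and 11.68 against 12.07, 12.02 and 11.94, where the groups did not overlap. The mean difference was 0.23 ± 0.063 (SE; limma adjusted p = 0.170). MAFF probe set 2 gave 0.19 ± 0.074 (SE; adjusted p = 0.304).

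The 4 calls depended on having all pairs. Leaving out anti-EpCAM pair 1 kept 3 of them, with adjusted p = 0.0381 for ATF3, 0.0387 for FOS and 0.0407 for JUN probe set 2, while FOSL2 probe set 2 went to 0.0584. Leaving out any other pair (untreated 1, 2 or 3, or anti-EpCAM 2 or 3) left 0 members called, with the highest adjusted p at 0.0994 for ATF3, 0.114 for FOS, 0.128 for JUN probe set 2 and 0.203 for FOSL2 probe set 2. Over the settings tried the estimates lay between 0.51 and 0.61 for ATF3, 0.41 and 0.46 for FOS, 0.42 and 0.48 for JUN probe set 2, and 0.33 and 0.41 for FOSL2 probe set 2. Only the rescalings and the fits without pairs could move them, since the other settings leave the mean difference as it is.

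For the 4 probe sets called over the 6 pairs, the 3 pairs of each treatment gave the same direction and no calls. The spread in these tests was estimated from the pairs of both treatments together. In untreated cells ATF3 probe set 1 was higher in SP cells by 0.58 ± 0.089 (SE; adjusted p = 0.192), FOS by 0.48 (0.192) and JUN probe set 2 by 0.47 (0.196). With antibody the differences were 0.54 for ATF3 (adjusted p = 0.162), 0.41 for FOS (0.186) and 0.42 for JUN probe set 2 (0.191). In either treatment 0 members and 0% of all probe sets passed, with 2773 and 2732 of all at an unadjusted p under 0.05. With 1 probe set per gene, ATF3 passed in untreated cells (adjusted p = 0.0467), where 0.0956% of all 14649 genes did (14), and with antibody (0.0469), where 0.246% did (36). Whether the SP difference itself differed by antibody was tested as the interaction. It was −0.040 ± 0.13 (SE) for ATF3, −0.064 ± 0.11 for FOS, −0.048 ± 0.11 for JUN probe set 2, −0.070 ± 0.11 for FOSL2 probe set 2 and −0.095 ± 0.15 for FOSL1. None of the 21 passed, 0 of them had an unadjusted p under 0.05, and 0% of all probe sets passed (520 unadjusted). The 95% interval for ATF3 ran from −0.33 to 0.25, so a change in the SP difference of that size was not detectable at this number of arrays.

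The antibody was compared with no antibody on the 6 pair means, 3 against 3. No member was called and 0% of all probe sets passed, with 156 of all, 1 of them a member, at an unadjusted p under 0.05; the lowest adjusted p was 0.9998. Antibody minus untreated was 0.049 ± 0.23 (SE) for ATF3 probe set 1, 0.18 ± 0.33 for FOS, 0.18 ± 0.22 for JUN probe set 2, 0.054 ± 0.23 for FOSL2 probe set 2 and 0.30 ± 0.22 for FOSL1. On the deposited scale, the 95% interval for FOS, −0.60 to 0.96, reaches past every mean SP minus non-SP difference of a member. The 1 member was JUND probe set 3 at 0.58 ± 0.25 (SE; unadjusted p = 0.0493, limma adjusted p = 0.9998). As deposited, 16 of the 21 member probe sets were above 0 with a median of 0.15, and 76.1% of all probe sets were above 0 with a median of 0.093. After quantile normalization over the 12 arrays 12 of the 21 were above 0 and the median of all was 0.0062, and after centring each array on its median 11 of 21 were above 0. FOS then gave 0.12 ± 0.26 (SE) with quantile normalization and 0.047 ± 0.19 (SE) with median centring, so its interval was narrower than as deposited. The sign of 4 members changed in both scalings: ATF3 probe set 1 to −0.0085 and −0.083, FOSL2 probe set 2 to −0.013 and −0.078, FOSL2 probe set 4 to −0.078 and −0.12, and JUND probe set 1 to −0.024 and −0.100. That of MAFF probe set 2 changed with median centring alone, from 0.070 to −0.062. In non-SP cells alone and in SP cells alone, antibody contrasts gave 0 members called and 0% of all (345 and 176 unadjusted).

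**Figure D4:**
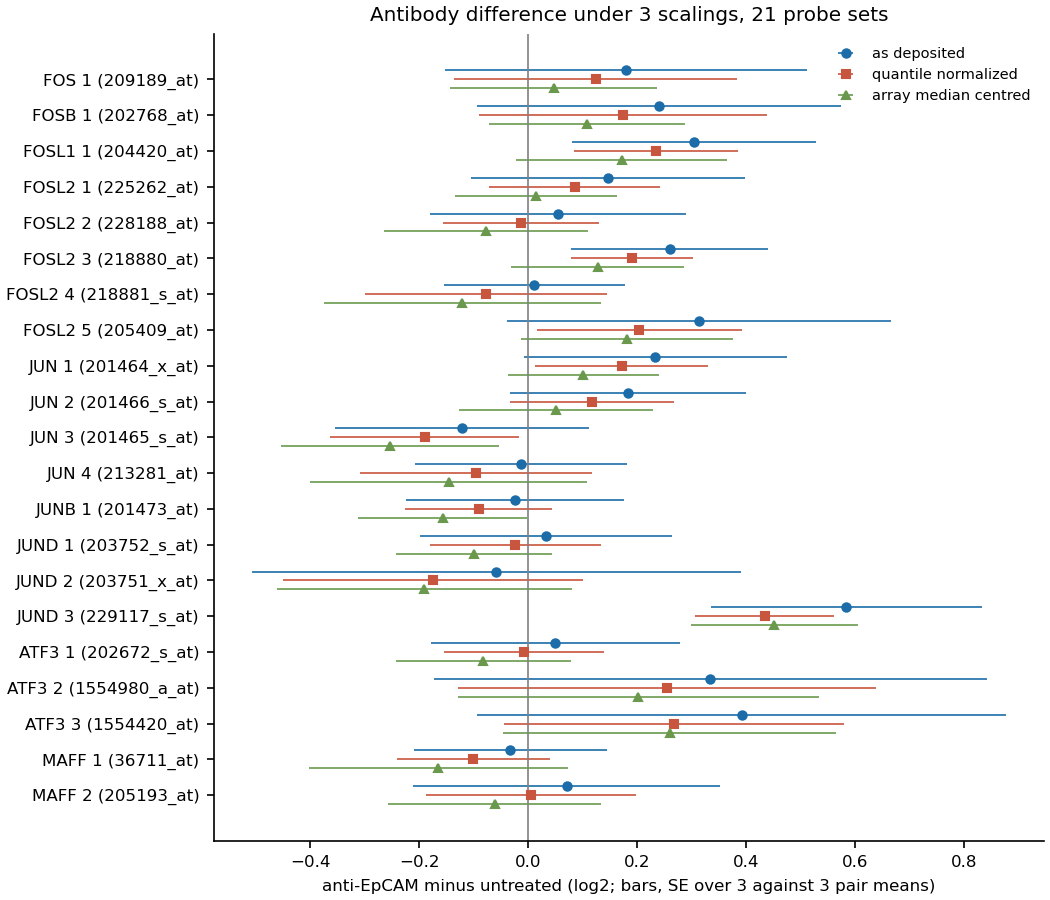
Antibody minus untreated difference in log2 units (horizontal axis; points with SE over 3 against 3 pair means) for the 21 tested probe sets, as deposited, after quantile normalization and after centring arrays on their medians. No member passed the test in any of the 3 scalings, and points shift left with either rescaling, across 0 in both for ATF3 probe set 1, FOSL2 probe sets 2 and 4 and JUND probe set 1, and with median centring also for MAFF probe set 2.

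Genes around AP-1 were described from 5 lists, chosen with earlier results of these data known. Each listed gene was counted once, by its brightest tested probe set. Of all 32768 probe sets tested, 51 rose (0.156%) and 159 fell in SP cells, 52.3% lay above 0 and the median was 0.006. These shares count every tested probe set, so a gene can enter more than once, and are not on the same basis as the lists. In the separate fit with 1 probe set per gene, 2.47% of 14649 genes passed in either direction. Of 25 tested other bZIP genes 0 rose and 1 fell in SP cells (20 above 0, median 0.040). The one that fell was CREB5 on its brightest probe set, at −0.62 ± 0.098 (SE; limma adjusted p = 0.0479), whereas the other CREB5 probe set gave 0.15 (adjusted p = 0.384). CREB5 is a CRE-binding partner of JUN. Next came NFE2L2, which encodes NRF2, at 0.31 (adjusted p = 0.0625). Of 22 kinases and factors upstream of AP-1 none passed in either direction (10 above 0, median −0.005). Of 22 genes known as AP-1 targets 0 rose and 1 fell (12 above 0, median 0.066): the cytokine IL11, at −1.09 ± 0.11 (SE; adjusted p = 0.0174), lower in SP cells in all 6 pairs on each of its 2 probe sets. The cyclooxygenase PTGS2 gave 0.35 (adjusted p = 0.0740).

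Of 23 other immediate-early genes 2 rose and 0 fell in SP cells, with 20 above 0 and a median of 0.17. Over all probe sets, rather than 1 per gene as in the list, 0.156% rose, 52.3% lay above 0 and the median was 0.006. With 1 probe set per gene in a fit of its own, 2.47% of all genes passed in either direction. The 2 that rose were the zinc finger factor EGR1 (0.53 ± 0.066, SE; adjusted p = 0.0261) and the orphan receptor NR4A3 (0.70 ± 0.091, SE; adjusted p = 0.0277). Another EGR1 probe set gave 0.79 in 6 of 6 pairs (adjusted p = 0.0634) and the third EGR1 probe set −0.19 with 3 of 6 pairs below 0 (adjusted p = 0.689). The other NR4A3 probe sets gave 0.79 and 0.22, each above 0 in 5 of 6 pairs, and did not pass (adjusted p = 0.222 and 0.265). MYC was at 0.40 (adjusted p = 0.0512) and KLF2 at 0.36 (adjusted p = 0.0625). Of 14 genes of the ATF4 and ATF3 stress axis none passed in either direction (11 above 0, median 0.032), and its leading gene, the mTOR inhibitor DDIT4, was at 0.29 (adjusted p = 0.0808). All 4 list genes that passed lost the call without the pairing and, leaving out single pairs, in 4 of 6 such fits for NR4A3 and 5 of 6 for CREB5, EGR1 and IL11. With the GAPDH control as a covariate CREB5 (adjusted p = 0.0775) and NR4A3 (0.0534) lost the call, and EGR1 (0.0469) and IL11 (0.0408) kept it.

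The genes whose level over the 12 arrays followed a member's most closely are given as a description, since SP and non-SP arrays of a pair are not independent. After subtracting each array's median, ATF3 probe set 1 had its highest Pearson r with HIVEP1 (0.919), EGR1 (0.911), KLF2 (0.903), ZNF766 (0.895) and ARID4B (0.892). FOS had its highest with NEDD9 (0.958), NR4A3 (0.934), SKIL (0.934), FOXO1 (0.927) and CHD1 (0.906). JUN probe set 1 had POLL (0.957), ZC3H7B (0.931), MEGF11 (0.875), PARVG (0.872) and RAB17-DT (0.863), and FOSL1 had NAT10 (0.899), PRR13 (0.892), FAXC (0.886), ZKSCAN5 (0.871) and ATG7 (0.863). MAFF probe set 1 had RRP12 (0.987), TTC5 (0.977), ADM (0.969), UGCG (0.969) and NDRG1 (0.966). Of these, EGR1, KLF2 and NR4A3 belong to the immediate-early list.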

How the data were processed

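Total RNA (the labels' protocols name a 3′ IVT labelling kit) from 12 sorted A549 samples was measured on an Affymetrix array. The deposited values are log2 levels that the authors made with RMA, as the submitters' processing notes record; neither its version nor the set of arrays normalized together is given. Between SP and non-SP arrays of one treatment and number, sorted values lay 0.0093 to 0.0213 apart on average, and between other arrays 0.0461 to 0.524. Some values were equal in both arrays of a pair. JUND probe set 4 read 4.23 in both arrays of untreated pair 1 and 4.03 in both of anti-EpCAM pair 1. Normalization by pair, which no source states, was not tested. Deviations from group means correlated between the SP and non-SP arrays of a pair with r of 0.521 to 0.864. The shares of normalization by pair and of a shared sort in this r were not tested. No label ties the arrays of a pair to one sort. Across treatments, r in non-SP and SP cells was 0.656 and 0.629 for number 1 and 0.483 and 0.567 for number 3. As number 2 gave −0.196 and −0.364, numbers were not used as pairs there.

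Gene names came from the probe table: 41091 probe sets had 1 symbol, 1801 several and 11721 none. limma 3.58.1 in R 4.3.3 was fitted to within-pair differences, 1 mean per treatment, over 32768 probe sets, two-sided with Benjamini-Hochberg adjustment; antibody was tested on pair means and, per fraction, on 12 arrays. The scripts were tested on simulated data. Members, lists and tests were chosen with earlier results of these data known. Named were all member probe sets, up to 4 genes per list with the smallest p, and the 5 genes with the highest r to ATF3, FOS, JUN, FOSL1 and MAFF. The median centring, the comparison of probe sets within a gene and the TGACATCA motif were added after seeing the data.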

Additional observations from a re-analysis of the deposited data

Results flagged for a closer look

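Of the 22 member probe sets, 2 had a pair far from the other 5 by Dixon's test, which flags about 1 in 20 groups by chance. FOS had its highest SP minus non-SP difference in untreated pair 3, 0.604 in log2 units against 0.383 to 0.462 in the others (gap over range 0.641). FOSL2 probe set 1 had its lowest in anti-EpCAM pair 2, at −0.0479 against 0.0872 to 0.160 in the others (gap over range 0.651).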

How the results depend on the processing

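The 4 members called over the 6 pairs became 0 with no replicate block, 0 with the replicate block by number alone, 0 with an intensity trend in limma, 0 with anti-EpCAM pairs 1 and 3 left out together, and 0 to 3 when single pairs were left out. The same 4 passed with quantile normalization, median centring and a filter at the 60th percentile, and 3 of them with no filter and with the GAPDH covariate. With 1 probe set per gene only 2 of the 4 (ATF3 and FOS) were in the fit; both passed, and FOSL1 was newly called. All probe sets called, 210 as reported, became 0, 17, 0 and 0 in the same order for the first 4, 362 with 1 probe set per gene, 125 with the GAPDH covariate and 0 to 322 without single pairs. With 1 probe set per gene, 1 member passed in untreated cells (14 of all 14649 genes) and 1 with antibody (36 of all). The cause of these shifts was not tested.

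Some differences changed sign. Without pairs 1 and 3 of the antibody, JUN probe set 1 gave −0.0096, JUND probe set 2 −0.1007 and the FOSL2 probe set 2 interaction 0.0317. Antibody differences under quantile normalization were −0.0085 for ATF3, −0.0134 for FOSL2 probe set 2, −0.0779 for FOSL2 probe set 4 and −0.0242 for JUND probe set 1. Under median centring they were −0.0831, −0.0778, −0.1214 and −0.0999, and −0.0620 for MAFF probe set 2. Over the fits without single pairs, the fraction difference ran from −0.0122 to 0.0308 for JUN probe set 1, −0.1134 to 0.0614 for JUN probe set 3, −0.0274 to 0.1021 for JUND probe set 2 and −0.0191 to 0.1758 for FOSL2 probe set 5. The interaction ran from −0.1308 to 0.0392 for ATF3 and −0.2181 to 0.0004 for FOSL1. The antibody difference ran from −0.1258 to 0.2208 for ATF3, −0.0910 to 0.5207 for FOS and −0.1416 to 0.1962 for FOSL2 probe set 2. The antibody comparison, with 3 arrays a group, has wide intervals, and their width also changed with the scaling. From the deposited values to median centring, the SE went from 0.33 to 0.19 for FOS and from 0.18 to 0.24 for MAFF probe set 1. Dim probe sets near the filter have the least signal over background.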
